A study of Mus musculus with 8 samples.

Results

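The core circadian clock was read here through 10 genes, the activators Clock and Arntl, the repressors Per1, Per2, Per3, Cry1 and Cry2, the nuclear receptors Nr1d1 and Nr1d2, and the output factor Dbp. All non-control spots carrying one of these gene names were taken, which gave 14 probes of the 39429 on the array, with 2 probes each for Per1, Cry2, Nr1d2 and Dbp and 1 for the others. The study profiled tissue labelled as striatum of the prefrontal cortex from adult male C57Bl/6j mice with 2-colour Agilent arrays. It compared 4 wildtype mice with 4 mice heterozygous for Brd2 (Brd2+/-), in which a gene-trap vector sits in 1 copy of the gene. Brd2 encodes a bromodomain protein that binds acetylated histones, and the series title names synaptic transmission as the process of interest. No mouse received a drug or other treatment per the labels, and all came from crosses between heterozygous parents. The hour of the day at which tissue was taken, the light schedule and the exact ages are not given in the sources used here.

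The clock works as a feedback loop. CLOCK and ARNTL (also called BMAL1) bind E-box sequences as a pair and switch on the Per and Cry genes, whose proteins then return to the nucleus and block the pair. In a side loop the same pair switches on Nr1d1 and Nr1d2, the REV-ERB receptors, which in turn repress Arntl. Dbp is driven directly by the pair and acts through D-box sequences. In a tissue with a running clock, Arntl peaks at about the opposite phase to Per, Nr1d1 and Dbp. In neurons Per1 is also an activity-induced gene, and in forebrain NPAS2 can stand in for CLOCK.

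Promoter sequences are shown for 5 members. For 4 of them a probe given further on had genotypes that did not overlap, in raw values (Per1, Nr1d2 and Dbp) or only within each dye (Cry1), and Per3 holds a pair of D-boxes. RefSeq (assembly GRCm38.p6) gave windows for 9 of the 10 genes, 13 windows in all, and none for Per2. Each sequence runs 5′ to 3′ over the 250 bases before a start site, in lower case, with capitals marking the E-box CACGTG, a variant of it spelled CACGTT, and the D-box, spelled TTATGTAA or also TTACGTAA, each searched for on both strands.
Per1 (chr11:69098699-69098948, plus strand): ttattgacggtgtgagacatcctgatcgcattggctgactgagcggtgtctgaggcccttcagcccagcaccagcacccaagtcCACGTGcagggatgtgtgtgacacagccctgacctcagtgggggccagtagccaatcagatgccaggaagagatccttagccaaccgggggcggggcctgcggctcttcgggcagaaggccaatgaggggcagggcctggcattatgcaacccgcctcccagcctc
Cry1 (chr10:85185055-85185304, minus strand): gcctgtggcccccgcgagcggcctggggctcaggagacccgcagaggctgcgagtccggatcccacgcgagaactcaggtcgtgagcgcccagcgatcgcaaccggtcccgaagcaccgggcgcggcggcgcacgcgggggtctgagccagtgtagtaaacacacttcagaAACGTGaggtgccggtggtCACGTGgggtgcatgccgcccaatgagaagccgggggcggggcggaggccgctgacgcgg
Per3 (chr4:151044666-151044915, minus strand): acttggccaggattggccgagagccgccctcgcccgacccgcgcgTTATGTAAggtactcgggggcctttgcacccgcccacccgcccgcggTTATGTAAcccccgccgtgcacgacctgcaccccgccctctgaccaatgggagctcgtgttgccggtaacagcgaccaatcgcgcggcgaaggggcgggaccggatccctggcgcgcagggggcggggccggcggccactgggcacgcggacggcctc
Nr1d2 (chr14:18239107-18239356, minus strand): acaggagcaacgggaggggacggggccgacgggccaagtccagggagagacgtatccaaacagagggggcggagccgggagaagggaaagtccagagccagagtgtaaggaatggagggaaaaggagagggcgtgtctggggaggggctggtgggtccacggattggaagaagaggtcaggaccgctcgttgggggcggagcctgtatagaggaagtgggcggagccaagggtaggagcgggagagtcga
Dbp (chr7:45704997-45705246, plus strand): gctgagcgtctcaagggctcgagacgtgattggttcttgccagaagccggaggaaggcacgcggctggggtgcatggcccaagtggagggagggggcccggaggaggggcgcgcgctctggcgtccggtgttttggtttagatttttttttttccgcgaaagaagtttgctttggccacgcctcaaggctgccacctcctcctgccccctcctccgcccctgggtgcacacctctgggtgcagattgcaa

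The Per1 window shown held 1 E-box, 166 bases before the start, while a second Per1 window, not shown, held no E-box, variant or D-box. The Cry1 window held an E-box at 60 and the variant at 79. The Per3 window held D-boxes at 205 and 158. Nr1d2 and Dbp had none of these letters in their windows. Of 32817 windows of this length in the table, 6.02% held an E-box, 3.85% the variant and 0.929% a D-box, on either strand, and 0.0213% held 2 or more D-boxes. The variant was also present once in Cry2 and once in Nr1d1. The motif TGACGTCA of cAMP-driven genes was in none of the 13 windows and in 1.55% of all. A match describes the letters and is not a measured binding site.

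Most of the clock was readable in this tissue. Of the 14 probes, 10 stood well above background in all 8 mice, Cry1 and Per2 in 7, and the only Per3 probe and the second Per1 probe (A_55_P2019327) in 2. None was saturated. Outlier spots left the brighter Cry2 probe without wildtype replicate 1 and 1 Dbp probe without heterozygous replicates 3 and 4, so 10 probes had a value in every mouse and passed the filter (well above background in at least 4 of 8 samples). They cover 9 genes, all but Per3. All levels below are log2 intensities of a mouse's own channel, and levels of different probes are not comparable with each other.

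Each array carried 2 mice of 1 genotype, 1 in Cy3 (replicates 1 and 3) and 1 in Cy5 (replicates 2 and 4), so that a genotype rests on 2 arrays. Between 16398 (heterozygous replicate 3) and 24867 (heterozygous replicate 2) probes per mouse were well above background, the next lowest count being 21010 (wildtype replicate 3). The array of heterozygous replicates 3 and 4 had the lowest median signal over background in each dye, 6.46 in Cy3 and 3.72 in Cy5. Values of 2 mice on an array correlated at 0.986 to 0.989 across probes and those of mice on different arrays at 0.925 to 0.959, across probes that are not independent replicates. Brd2 itself did not check the labels. Its brighter probe lay between 10.78 and 12.02 in wildtype mice and between 11.68 and 11.83 in those labelled heterozygous, a difference of 0.28 (SE 0.35), and where the probes lie relative to the vector is not stated. The other Brd2 probe read 7.13 ± 0.26 in wildtype and 8.01 ± 0.18 in the mice labelled heterozygous (SD, n = 4 each). That is 0.88 higher (SE 0.28), with an adjusted p of 0.50 in limma, or 0.045 without the array block, so no lowered Brd2 level was seen. Directions below therefore rest on the genotype labels. All 9 striatal projection neuron genes listed were well above background in every mouse by at least 1 probe. The labels' free description names the left atrium of the heart, and of 7 atrial muscle genes 1 was well above background in every mouse and 2 in none.

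The comparison of genotypes asks whether the clock genes, and the balance of their arms, differ between mice labelled heterozygous for Brd2 and wildtype mice. No clock probe passed the test. Per1 and Dbp read higher in the mice labelled heterozygous by 0.54 and 0.48 log2 units, and Cry1 read lower (-0.60). For Clock, Arntl, Per2, Nr1d1 and the tested Cry2 probe the difference was smaller than the gap between the 2 arrays of a genotype, and for the Nr1d2 probe that read lower (-0.60) it was no larger than the gap between the heterozygous arrays. Limma called 0 of 18399 probes at an adjusted p of 0.05 (0%), the lowest adjusted p being 0.437, and 1481 (8.05%) had an unadjusted p under 0.05, with 3.83% higher and 4.22% lower. With the scanner software's processed signals 36.1% of such probes were higher, and without normalization between arrays 33.5%, against 47.5%. Of the 10 clock probes, 0 reached that level, their unadjusted p-values starting at 0.0635 and their adjusted ones running from 0.660 to 0.969 in limma. By direction 5 were higher and 5 lower, with a median of -0.036, where 47.6% of all probes were higher and their median was -0.022.

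**Figure D1:**
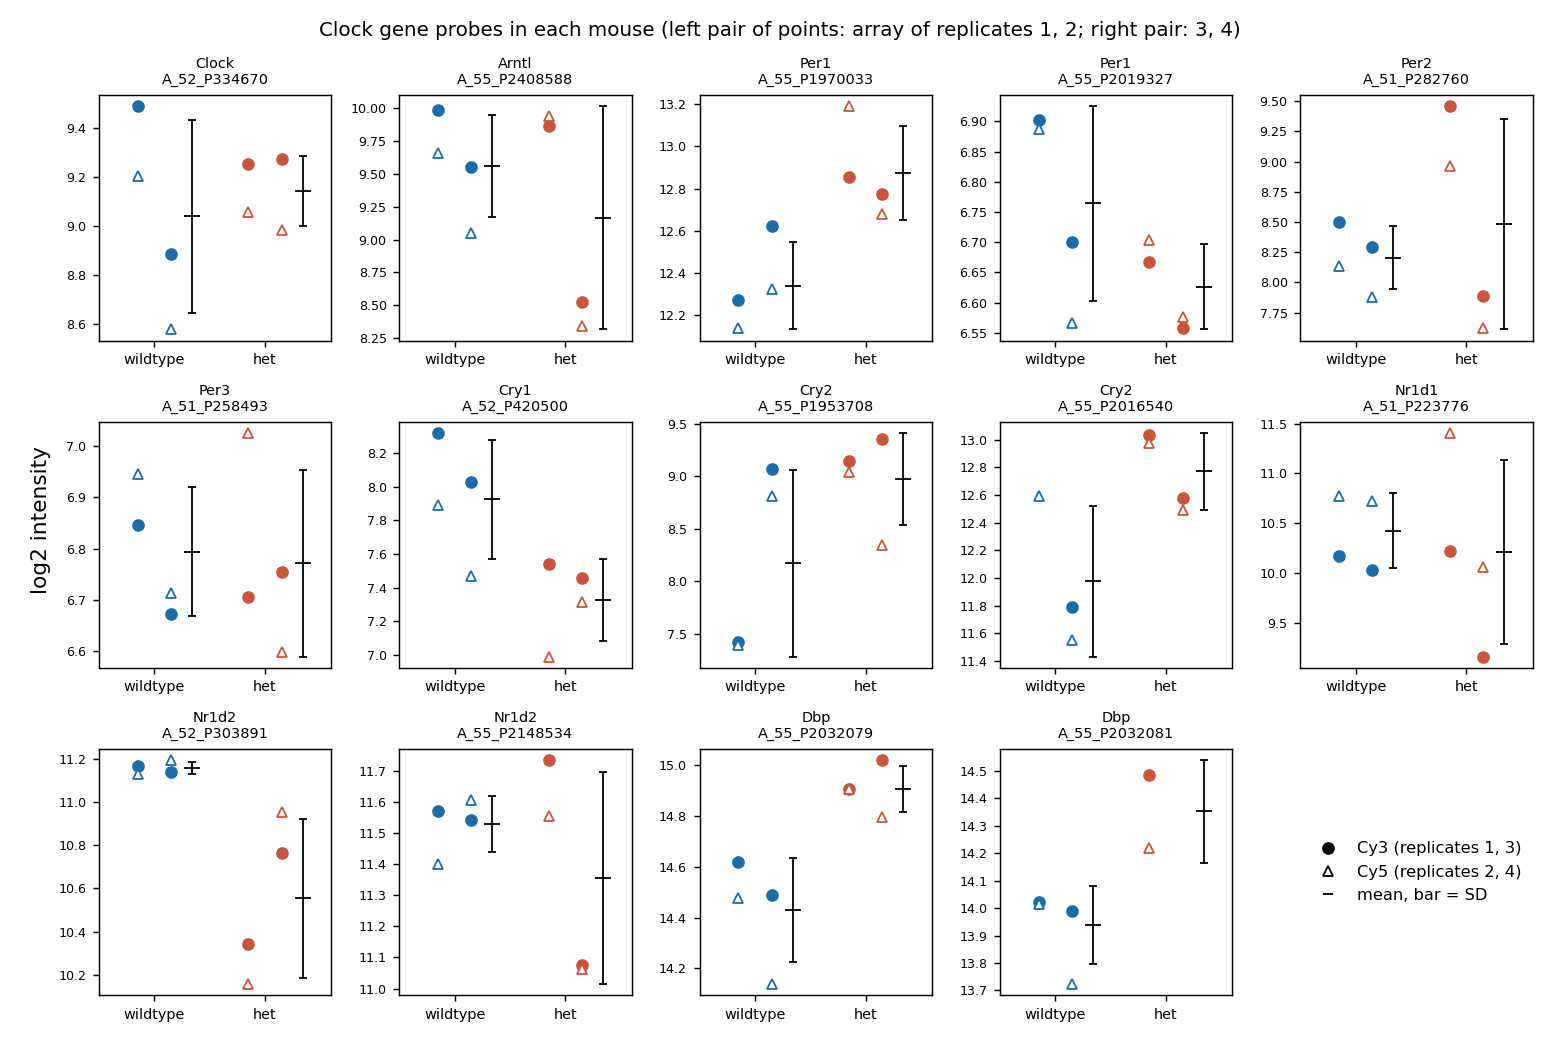
Log2 intensity (vertical axes, a separate scale for each panel) of the 14 clock probes in each mouse, wildtype in blue and heterozygous in red; filled circles are Cy3, open triangles Cy5, the left and right pair of a group are its 2 arrays, and the black mark with its bar is the mean ± SD. Per1 A_55_P1970033 and Dbp A_55_P2032079 show 4 heterozygous points above all wildtype points, while Arntl, Per2 and Nr1d1 split between the heterozygous arrays.

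Of the activators, Clock differed little between the genotypes. CLOCK is the histone-acetylating partner of the pair. Its probe (A_52_P334670, chromosome 5, 76641377 to 76641436, minus strand, mm9) read 9.49, 9.20, 8.89 and 8.58 in wildtype replicates 1 to 4 and 9.25, 9.06, 9.27 and 8.98 in heterozygous ones. All 4 heterozygous values fell inside the wildtype range. The difference was 0.10 (SE 0.26, 95% interval -0.48 to 0.68). It turned to -0.21 when the second wildtype array (replicates 3 and 4) was dropped and was 0.41 when the first was, and with spatial trends removed over 2 grids of blocks it was 0.018 and -0.077.

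Arntl, the partner of CLOCK and the gene on which the REV-ERB loop closes, varied more between the heterozygous arrays than between genotypes. Its probe (A_55_P2408588, chromosome 7, 120457261 to 120457320, plus strand, mm9) read 9.98, 9.66, 9.55 and 9.05 in wildtype replicates 1 to 4. In heterozygous replicates 1 and 2 it read 9.86 and 9.93, and in replicates 3 and 4 it read 8.53 and 8.34. The first of these arrays thus lay with the highest wildtype array, and the second lay below every wildtype mouse. The genotype difference was -0.39 (SE 0.47, 95% interval -1.46 to 0.68). It was 0.34 when the second heterozygous array was dropped and -1.12 when the first was. Dropping the wildtype array of replicates 1 and 2 gave -0.13, dropping that of replicates 3 and 4 gave -0.65, and the processed signals gave -0.78.

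Npas2, the forebrain stand-in for Clock, is not among the 10 genes but completes the activators. It read 7.85, 8.21, 7.58 and 7.52 in wildtype and 7.04, 7.63, 6.81 and 7.23 in heterozygous replicates 1 to 4. The groups overlapped, since heterozygous replicate 2 lay above wildtype replicates 3 and 4. The difference was -0.62 (SE 0.35, adjusted p = 0.733 in limma).

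Per1, the period gene that also responds to neuronal activity, had separated genotypes. Its main probe (A_55_P1970033, chromosome 11, 68923364 to 68923423, plus strand, mm9) read 12.27, 12.14, 12.62 and 12.32 in wildtype replicates 1 to 4 and 12.86, 13.19, 12.77 and 12.68 in heterozygous ones. Every heterozygous value was above every wildtype value, the closest being 12.68 against 12.62. The means were 12.34 ± 0.21 and 12.87 ± 0.22 (SD, n = 4 each), a difference of 0.54 (SE 0.33, 95% interval -0.22 to 1.29, adjusted p = 0.773 in limma). A two-sided exact permutation over mice gave p = 0.0286, the smallest that 4 against 4 allows. Any probe without overlap gets this value, and it ignores the sharing of arrays. With whole arrays as units 2 against 2 cannot go below 0.333. The Cy3 mice differed by 0.37 and the Cy5 mice by 0.71. Over all 31 alternatives run the sign stayed positive, between 0.37 and 0.71. Those that change only the model or the filter leave the difference as it was. Without overlap, leaving out mice could hardly turn it either.

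The second Per1 probe (A_55_P2019327), assigned to a cDNA clone, was well above background in 1 mouse of each genotype. It lay between 6.56 and 6.90 in all 8 mice and adds no measure of Per1.

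Per2, the second period gene, showed the same split of the heterozygous arrays as Arntl. Its probe (A_51_P282760, chromosome 1, 93313046 to 93313105, minus strand, mm9) read 8.50, 8.14, 8.30 and 7.88 in wildtype mice. Heterozygous replicates 1 and 2, at 9.46 and 8.96, were above all of these. Heterozygous replicates 3 and 4, at 7.88 and 7.63, were at or below the lowest of them. The difference of 0.28 (SE 0.41, 95% interval -0.66 to 1.21) became -0.45 when the first heterozygous array was dropped and 1.00 when the second was. It was 0.065 with the processed signals, 0.18 with spatial trends removed (by either grid) and 0.16 when the second wildtype array was dropped. Per3, the third period gene, was close to background, between 6.67 and 6.95 in wildtype and 6.60 and 7.03 in heterozygous mice, so no genotype difference was measurable.

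Cry1 read lower in the mice labelled heterozygous once the dyes were set apart. CRY1 is the stronger repressor of CLOCK and ARNTL. Its probe (A_52_P420500, chromosome 10, 84594731 to 84594790, minus strand, mm9) read 8.32 and 8.03 in the Cy3 wildtype mice against 7.54 and 7.46 in the Cy3 heterozygous mice. In Cy5 it read 7.89 and 7.47 against 6.99 and 7.31. The probe was well above background in 4 of 4 wildtype but 3 of 4 heterozygous mice, so its lowest values are near background. Within each dye the genotypes did not overlap, although across dyes wildtype replicate 4 lay under heterozygous replicate 1. The difference was -0.60 (SE 0.28, 95% interval -1.24 to 0.042), with an adjusted p of 0.660 in limma. With spatial trends removed over 2 grids it shrank to -0.22 and -0.24, and over 30 alternatives it stayed negative. Many of those change only the model or the filter and leave the difference as it was.

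Cry2, the other cryptochrome, was read by 2 probes whose wildtype arrays ranked in opposite order. The probe A_55_P2016540 (chromosome 2, 92243807 to 92243866, minus strand, mm9) read 12.59, 11.79 and 11.55 in wildtype replicates 2 to 4 and 13.04, 12.98, 12.58 and 12.49 in heterozygous mice, with wildtype replicate 1 set aside as an outlier spot. Restoring that spot, at 12.81, gave a difference of 0.59 with overlapping groups. The probe A_55_P1953708 (chromosome 2, 92251417 to 92251476, minus strand, mm9), assigned to transcript variant 2 in the file, read 7.42, 7.39, 9.07 and 8.81 in wildtype and 9.15, 9.04, 9.36 and 8.34 in heterozygous mice. Here the array of wildtype replicates 1 and 2 was the low one, whereas with the first probe it was the high one. The difference of 0.80 (SE 0.58, 95% interval -0.52 to 2.11) rested on that array, being 0.033 without it and 1.57 without the other wildtype array.

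**Figure D2:**
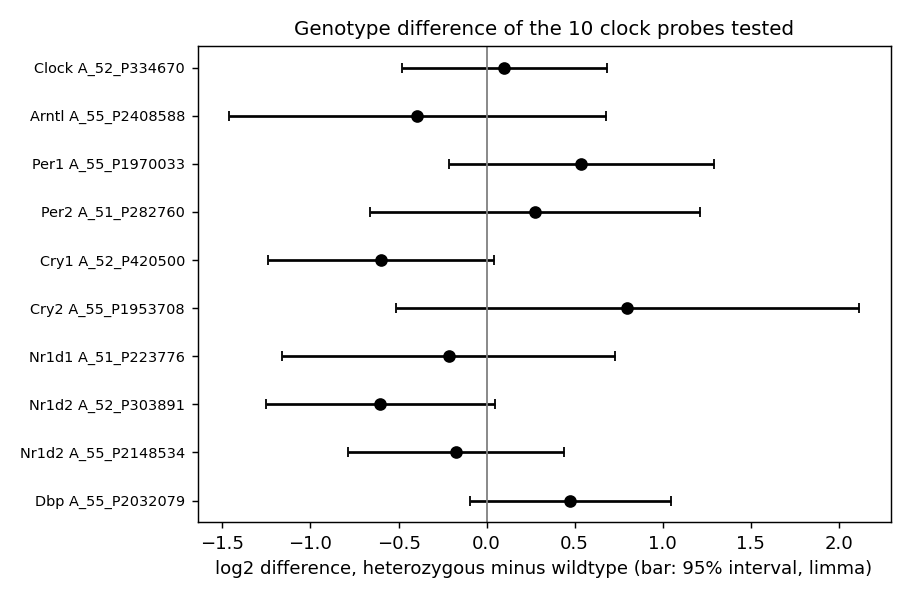
Log2 difference of heterozygous minus wildtype mice for the 10 clock probes tested (points), with the 95% interval of the limma fit (bars) and a grey line at 0. All 10 intervals include 0, those of Cry1 (-1.24 to 0.042) and Nr1d2 A_52_P303891 (-1.25 to 0.049) by the least.

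The REV-ERB receptors gave no common difference. Nr1d1 (REV-ERB alpha, A_51_P223776, chromosome 11, 98630526 to 98631028, minus strand, mm9) read 10.17, 10.78, 10.04 and 10.73 in wildtype replicates 1 to 4. Heterozygous replicates 1 and 2 read 10.22 and 11.40, and replicates 3 and 4 read 9.17 and 10.06. Its Cy5 values ran above the Cy3 values on every array. The difference was -0.21 (SE 0.42, 95% interval -1.16 to 0.73). It turned to 0.39 when the second heterozygous array was dropped, to 0.065 with the processed signals and to 0.036 with spatial trends removed (-0.13 over the other grid), and it was -0.81 when the first heterozygous array was dropped, -0.35 without heterozygous replicate 2, -0.14 without wildtype replicate 1, -0.41 in Cy3 mice alone and -0.020 in Cy5 mice alone.

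Nr1d2 (REV-ERB beta) had 2 probes that put the heterozygous arrays in opposite order. A_52_P303891 (chromosome 14, 19037253 to 19037312, minus strand, mm9) was tight in wildtype mice, at 11.16, 11.13, 11.14 and 11.19, and lower in the heterozygous ones, at 10.34, 10.16, 10.76 and 10.95. No values overlapped. The difference was -0.60 (SE 0.29, 95% interval -1.25 to 0.049, adjusted p = 0.664 in limma), and the exact permutation over mice was again at its floor of 0.0286. A_55_P2148534 (chromosome 14, 19036568 to 19036627, minus strand, mm9), read 11.57, 11.40, 11.54 and 11.61 in wildtype and 11.74, 11.56, 11.07 and 11.06 in heterozygous mice, a difference of -0.17 (SE 0.27). The array of heterozygous replicates 1 and 2 was thus the lowest of all arrays for the first probe and the highest for the second. With the second heterozygous array dropped the first probe stood at -0.91 and the second at 0.11, with the first array dropped at -0.30 and -0.46, and with the processed signals at -0.22 and 0.12. With spatial trends removed over the 2 grids the second probe was at -0.054 and -0.044, and over the second grid the first was at -0.32.

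Dbp is the PAR bZIP factor that carries the clock to its output genes. Its brighter probe (A_55_P2032079, chromosome 7, 52965461 to 52965520, plus strand, mm9) read 14.62, 14.48, 14.49 and 14.14 in wildtype and 14.90, 14.91, 15.02 and 14.80 in heterozygous replicates 1 to 4. All heterozygous values lay above all wildtype values, and the 2 heterozygous arrays had the same mean of 14.91. The difference was 0.48 (SE 0.25, 95% interval -0.094 to 1.05), with an adjusted p of 0.706 in limma. The exact permutation over mice was at its floor of 0.0286, which the lack of overlap fixes. With the scanner software's processed signals the difference was 0.012, and with spatial trends removed over the second grid it was 0.079. The second Dbp probe (A_55_P2032081, chromosome 7, 52965322 to 52965381) read 14.02, 14.02, 13.99 and 13.72 in wildtype and 14.48 and 14.22 in heterozygous replicates 1 and 2. Replicates 3 and 4, set aside as outlier spots, stood at 13.95 and 13.80, and with them the difference was 0.18 and the groups overlapped.

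Counted together, 3 of the 10 probes had no overlap between genotypes, where 17.0% of all probes tested had none. Per1 and Dbp were higher, as were 7.86% of all, and Nr1d2 was lower, as were 9.10%. With the mean of each dye removed Cry1 joined them, 4 of 10 against 20.5% of all (9.72% higher and 10.8% lower). A difference of at least 0.5 in size was found in 4 of 10, against 22.0% of all probes. These counts are small, and nothing particular to the clock is read from them.

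Set out mouse by mouse, the activator Arntl did not mirror the E-box-driven genes Per2 and Nr1d1. With the mean of each dye removed, Arntl lay at 0.50 and 0.41 in wildtype replicates 1 and 2, at 0.072 and -0.20 in replicates 3 and 4, at 0.38 and 0.69 in heterozygous replicates 1 and 2 and at -0.95 and -0.90 in replicates 3 and 4. Per2 lay at 0.92 and 0.81 in heterozygous replicates 1 and 2 and at -0.65 and -0.53 in replicates 3 and 4, and Nr1d1 at 0.33 and 0.66 and then at -0.73 and -0.68. These 3 genes, from opposite arms of the loop, were thus all high on the first heterozygous array and all low on the second. The second array also had the lowest median signal over background in each dye, and the part of this in the split was not tested. The gap between the heterozygous arrays was 1.46 for Arntl, 1.45 for Per2 and 1.20 for Nr1d1, and 98.3%, 98.2% and 96.2% of all probes tested had a smaller one. Between the wildtype arrays the same genes had gaps of 0.52, 0.23 and 0.093, and the median probe had 0.35. Arntl, Per2 and Nr1d1 had the largest heterozygous gaps of the tested clock probes, so their percentages are high by selection. For the other tested clock probes these percentages ran from 0.375% (Dbp) to 78.2% (Nr1d2 A_52_P303891). The tested Cry2 probe had a wildtype gap of 1.53, and 96.8% of all probes tested had a smaller one. Large gaps were thus not limited to the heterozygous arrays.

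Per1 and Dbp did not go below 0 with Arntl, Per2 and Nr1d1. Per1 was lower on the second heterozygous array (0.12) than on the first (0.42), and Dbp was at 0.24 on both. The brighter Nr1d2 probe did go from 0.20 to -0.38. On the second heterozygous array Per1 stood at 0.14 and 0.096 and Dbp at 0.26 and 0.22, while Per2 and Nr1d1 were at their lowest. Cry1 ran the other way, at 0.48 in both mice of the first wildtype array and at -0.30, -0.43, -0.38 and -0.10 in the heterozygous mice. The activator Npas2 lay at 0.53, 0.56, 0.26 and -0.12 in wildtype replicates 1 to 4. In heterozygous replicates 1 to 4 it lay at -0.28, -0.023, -0.51 and -0.42. Between genotypes Npas2 was thus lower where Per1 and Dbp were higher, although its groups overlapped. Averaged over Clock, Arntl and Npas2, the activators lay at 0.42 and -0.12 on the wildtype arrays and at 0.15 and -0.45 on the heterozygous ones. Averaged over 6 E-box-driven genes (Per1, Per2, Cry1, Nr1d1, Nr1d2 and Dbp), the values were 0.021, -0.072, 0.31 and -0.26. Within each genotype both averages were higher on the array of replicates 1 and 2. Between genotypes the E-box-driven minus activator difference was 0.35, with a spread between mice (SD within genotype and dye) of 0.23. It ran from 0.31 to 0.41 without single mice, moved further without a wildtype array, and was not tested. The 8 mice lie on 4 arrays, so no correlation over them is given, and mice and array cannot be told apart as the source of a shared deviation.

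**Figure D3:**
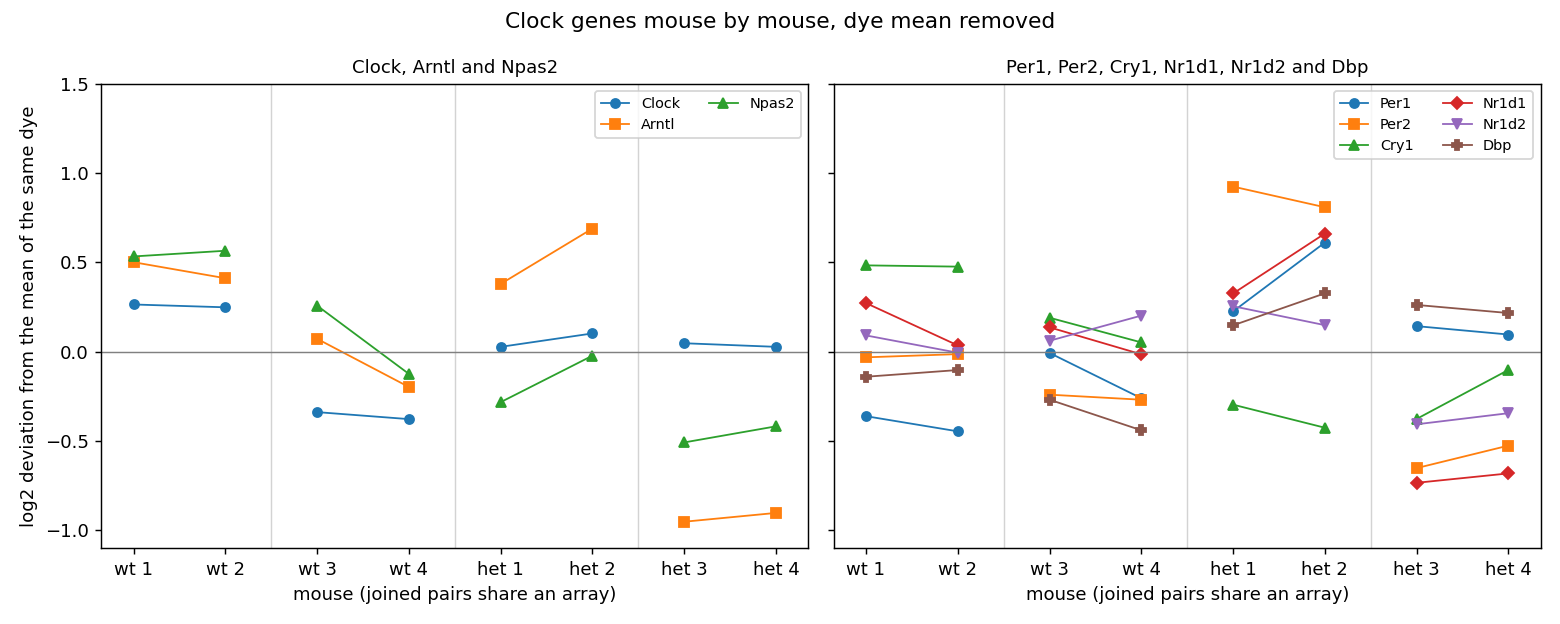
Log2 deviation of each gene from the mean of the 4 mice of the same dye (vertical axis) in the 8 mice (horizontal axis), with the mice of an array joined by a line; activators on the left, E-box-driven genes on the right. Arntl, Per2 and Nr1d1 all read lower on the second heterozygous array than on the first, and Dbp stays above 0 in all 4 heterozygous mice.

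The rest of the clock was taken from a list of 28 further genes, all with a probe on the array, 47 probes in total. Of the 35 probes tested, 0 passed an adjusted p of 0.05 in limma, 21 were higher and 14 lower in the mice labelled heterozygous, and the median was 0.089. An unadjusted p under 0.05 was found for 1 probe. Over all probes 47.6% were higher and 8.05% had such a p.

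Hlf and Tef are the relatives of Dbp and bind the same D-boxes. Hlf read 12.03 ± 0.41 in wildtype and 12.51 ± 0.07 in heterozygous mice (SD, n = 4 each), a difference of 0.48 (SE 0.32) with overlapping values. Tef read 14.55, 14.46, 14.45 and 13.97 in wildtype and 15.06 and 14.84 in heterozygous replicates 1 and 2, with replicates 3 and 4 set aside as outlier spots. Those spots stood at 14.47 and 14.20, inside the wildtype range. Nfil3, which competes with them for D-boxes, stood at 0.18 (SE 0.27). Ciart (CHRONO), a repressor of the CLOCK and ARNTL pair, stood at 0.49 (SE 0.29).

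Among the remaining loop genes, the repressors Bhlhe40 and Bhlhe41 stood at -0.13 (SE 0.55) and, by the brighter probe of Bhlhe41, at 0.39 (SE 0.25). The activators of Arntl transcription Rora and Rorb stood at 0.10 and 0.21 and at 0.089 and 0.10 by their 2 probes each. Usp2, a clock-driven deubiquitinase, was picked after its values were seen. It read 12.44 and 12.68 in heterozygous replicates 1 and 2 and 10.71 and 10.92 in replicates 3 and 4. Wildtype mice lay between 11.91 and 12.50. Picked in this way, it adds no support to the split of Arntl, Per2 and Nr1d1.

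No probe of the marker lists for activity and other cells passed an adjusted p of 0.05 in limma, and their levels are given here beside those of the clock. Of 6 immediate early genes all 4 tested probes (Fos, Junb, Dusp1 and Nr4a1) were higher in the mice labelled heterozygous, with a median of 1.30, where 47.6% of all probes were higher. The level summed over the 6 genes (log2 of the summed intensities of each gene's brightest probe, outlier spots kept) ranged from 14.16 to 15.16 in wildtype and from 15.27 to 16.20 in heterozygous mice. Per1 followed the same order of groups. For 9 striatal projection neuron genes the summed level ranged from 17.05 to 18.17 in wildtype and from 18.15 to 18.62 in heterozygous mice, ranges that overlap, with 6 of 7 probes tested higher. For 4 oligodendrocyte genes it ranged from 15.92 to 16.40 and from 16.79 to 17.25, with 3 probes higher and 2 lower, and for 3 endothelial genes from 12.73 to 13.16 and from 11.76 to 12.77, both tested probes being lower. For 4 astrocyte genes it ranged from 11.54 to 13.59 and from 12.56 to 13.22 (4 probes higher, 3 lower), for 3 microglial genes from 13.74 to 13.98 and from 13.77 to 14.02 (2 higher, 2 lower) and for 5 cortical excitatory neuron genes from 10.49 to 13.59 and from 9.67 to 11.02 (0 higher, 3 lower). For the 7 atrial muscle genes the summed level ranged from 10.54 to 12.21 in wildtype and from 10.04 to 10.50 in heterozygous mice (0 higher, 3 lower). The part of these lists in the results on Per1 and Dbp was not tested. In a tissue sample, fewer cells of a type and less RNA per cell cannot be told apart.

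Choroid plexus genes (4, led by Ttr) differed most between the arrays of a genotype, but mice sharing an array differed too, and the genotypes overlapped. The summed level was 8.67 and 10.47 in wildtype replicates 1 and 2 and 15.36 and 17.41 in replicates 3 and 4. It was 12.55 and 12.30 in heterozygous replicates 1 and 2 and 17.25 and 14.69 in replicates 3 and 4. Within each genotype Arntl was lower on the array with the higher choroid plexus level, as were Clock, Npas2, Per2 and Nr1d1. Per1, Cry1, the brighter Nr1d2 probe and Dbp were not lower there in both genotypes. With 2 arrays a genotype, this order does not single out Arntl. All 4 choroid plexus genes were well above background in at least 1 mouse, and their part in the array differences of Arntl, Per2 and Nr1d1 was not tested. Of 6 genes of the suprachiasmatic nucleus, the master clock in the hypothalamus, 0 were well above background in every mouse and 3 (Six6, Prok2 and Nms) in none, with a summed level of 9.42 to 10.09 in wildtype and 9.09 to 9.81 in heterozygous mice. The clock levels given here were thus measured beside little signal of that nucleus.

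The probes with the pattern most like Dbp over the 8 dye-adjusted values, among 13904 probes of other named genes, read Sdr42e1 and Limd2 (Pearson r = 0.994 each) and Ccpg1os (0.991). Those most like Arntl read Rock2 (0.992), Nop16 (0.991) and Plekhf2 (0.990). The values share arrays and normalization, and the highest of so many correlations over 8 mice are high by selection, so they are a description only.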

How the data were processed

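Each mouse's own channel was read from the deposited Feature Extraction files (version 11.0.1.1, build mm9, per the file headers), which hold raw spot and background intensity and the scanner software's processed intensity. The value table deposited by the authors holds a ratio, each spot's background-subtracted median over its column's median, a reading found by setting it against the scanner values (100% equal within 1e-06); its columns have a median of 1. From those intensities as deposited, log2 values were made by normexp (offset 50), loess and Aquantile, with limma 3.58.1 in R 4.3.3. Control and outlier spots were left out and spots of a probe averaged. Of 39429 probes, 22288 were well above background in at least 4 of 8 samples and 18399 of these had all values. Limma (lmFit, eBayes) compared genotypes with dye as a covariate and array as a random block (correlation 0.810), with Benjamini-Hochberg adjustment at 0.05. The samples are separate mice, but genotype varies only between arrays, so intervals may be too narrow. The fit was also run on simulated data with known changes, and the outcome is not given here. RefSeq named 27234 probes by accession, and the file's name was kept for others. The arm averages use the brightest probe of a gene where it was tested, which leaves out Per3 and Cry2. Named genes are every clock probe, a fixed part of the pathway list with any of it at an unadjusted p under 0.05 (1 such result is not reported here), Brd2 and the 3 closest patterns to Dbp and Arntl; Usp2 was picked after its values were seen. Members and lists were chosen with earlier results of these data known. The array number limits precision.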

Additional observations from a re-analysis of the deposited data

Results flagged for a closer look

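In wildtype mice the second Dbp probe (A_55_P2032081) had 1 value apart from the others, wildtype replicate 4 at 13.72 against 13.99 for the next, a gap of 0.893 of the group's range. Of 26 groups of 4 values examined over the clock probes this was the 1 set apart, where chance sets about 1 in 20 apart.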

How the results depend on the processing

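The 31 alternatives left the clock probes uncalled in limma throughout, and Per1, Cry1, Dbp (A_55_P2032079), Nr1d2 (A_52_P303891) and Cry2 (A_55_P1953708) kept their sign in all of those run for them. The other tested clock probes turned at least once. A kept sign was not a kept size. Dbp (A_55_P2032079) fell to 0.012 with the processed signals, and Cry2 (A_55_P1953708) to 0.033 without the array of wildtype 1 and 2. Changes of model or filter alone leave a difference as it was, so many alternatives could not turn a sign. Processed signals turned Nr1d1 to 0.065 and the other Nr1d2 probe (A_55_P2148534) to 0.12. Removing spatial trends turned Nr1d1 to 0.036 and the brighter Brd2 probe to -0.028, and it moved the pathway median from 0.089 to 0.012 and the mean of the Brd2 probes from 0.58 to 0.34. Another grid of blocks for the same step, chosen after seeing the data, turned Clock to -0.077 and that Brd2 probe to -0.091 and gave a pathway median of 0.021 and a Brd2 mean of 0.23. Leaving out a whole array turned Clock to -0.21 (wildtype 3 and 4), Brd2 to -0.27 (wildtype 1 and 2), Per2 to -0.45 (heterozygous 1 and 2), and Arntl to 0.34, Nr1d1 to 0.39 and Nr1d2 to 0.11 (heterozygous 3 and 4). It moved the median of the clock probes from -0.036 to -0.37 and 0.36 (heterozygous 1 and 2, then 3 and 4) and the pathway median to -0.024 and 0.19 (wildtype 1 and 2, then 3 and 4), and the E-box-driven minus activator difference to 0.13 and 0.58 (the same arrays). The clock median also turned positive with 1 probe a gene (0.10), processed signals (0.065), Cy5 mice only (0.054) and spatial trends removed (0.027), and it was -0.17 without the array of wildtype 3 and 4. The number of probes called, 0, became 1 with the authors' value table, 539 without the array block, and 17, 14 and 5 without the arrays of wildtype 1 and 2, wildtype 3 and 4 and heterozygous 3 and 4. Without single mice it ran from 0 to 1 (1 without wildtype replicate 4), the clock median from -0.047 to -0.007, the pathway median from -0.021 to 0.097, with lower values of 0.021 and 0.018 without wildtype replicate 3 and heterozygous replicate 4, the E-box-driven minus activator difference (0.35) from 0.31 to 0.41 and the mean of the Brd2 probes from 0.52 to 0.62. With 1 probe a gene the pathway median was 0.17, and Brd2 read 0.28, as it did with probes well above background in all 8 mice. Apart from samples and arrays left out and the array block, the cause was not tested. Same-numbered mice of the genotypes had correlations of their deviations of 0.040, 0.26, 0.16 and 0.12, or -0.043 to 0.18 with dye removed, not all above the 0.1 required for pairing, so the numbers were not taken to pair mice; with a replicate block 0 probes were called and the clock median stayed at -0.036. In Cy5 the median spot was 3.72 to 5.24 times its background and in Cy3 6.46 to 10.5, which limits the dim probes of Per3, Cry1 and Per2. The lowest value of each dye was that of the array of heterozygous replicates 3 and 4.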
